A study of Mus musculus with 4 samples.

Results

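Of 20799 protein-coding genes on chromosomes 1 to 19, 58 genes were read in 1 genotype and had few or no reads in the other. They were chosen by their read counts: the rule asked for at least 50 read counts in both libraries of a genotype and at most 10 in both libraries of the other, and 5 genes were left out by name. There were 21 genes read in WT cells only and 37 genes read in Npac KO cells only, which is 0.101% and 0.178% of the genes considered. Among the 12574 genes with at least 50 counts in some library, these shares were 0.167% and 0.294%. The counts themselves chose the genes, so the difference between the genotypes is described here and not tested.

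The cells were E14 cells, a mouse embryonic stem cell (mESC) line, grown without feeder cells in serum with leukemia inhibitory factor. WT cells gave 2 libraries (WT1 and WT2), and the labels do not say whether these were separate cultures. The KO cells gave 2 libraries, KO1 and KO2, which the study treats as separate knockout lines, so each line has 1 library. The knockout was made with Cas9 and guides against exon 3 of Npac, followed by puromycin selection and colony picking, whereas no such selection or picking is described for the WT cells. Whether WT and KO cells came from the same E14 subline is not given in the sources used here, so a difference between sublines and the loss of Npac cannot be told apart in any count below. Where replicates may be technical, p-values measure only the spread between these libraries. Npac, listed in the files as Glyr1, had 3961 and 3115 counts in WT cells and 744 and 888 in KO cells, and its log2 fold change was -2.14 (SE 0.23, edgeR adjusted p = 0.00174). Of 11 ES cell markers, 1 was called lower in KO cells and 0 higher; the exception was Zfp42, with 14426 and 12181 counts in WT cells and 2084 and 2234 in KO cells. Of 10 fibroblast markers, 6 had enough counts to be tested, and 1 was called higher and 0 lower. Col1a1, called higher, had 85 and 168 counts in WT cells and 285 and 326 in KO cells. Fbln1, Col6a3 and Col1a2 also had positive log2 fold changes, and Fbln1 had 379 and 941 counts in WT cells and 944 and 1195 in KO cells. Those of Thy1 (-0.49) and Pdgfrb (-0.67) were negative. Thy1 had 458 and 858 counts in WT cells and 397 and 534 in KO cells. Col3a1 and Dcn had 0 counts in all libraries. Total counts per library lay between 15850805 and 16965120.

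An mESC transcribes a broad set of housekeeping and pluripotency genes, while most genes of nerve, muscle, skin and immune cells are silent or read at traces. Npac binds nucleosomes of transcribed gene bodies and is known as a cofactor of histone demethylation. Genes that pass from traces to clear reading are of interest because many belong to other tissues or to families of near-identical copies, and the counts of such copies depend on where a read was placed. In bulk RNA, fewer cells reading a gene and less RNA per cell cannot be told apart.

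Both groups were lowly expressed. In the genotype that read them, genes read in KO cells only had 50 to 281 counts per library (median 81.5) and genes read in WT cells only had 54 to 919 (median 92). Per length, the median level was 1.93 FPKM (fragments scaled by transcript length and library size) and 1.47 FPKM, and 35 of 37 and 18 of 21 genes lay below the median of the genes with at least 50 counts. The ratio of library-scaled reads between the genotypes had a median of 22.6 for genes read in KO cells only and 26.7 for genes read in WT cells only. Such ratios are given below with a 95% exact binomial interval. The interval covers counting error only, and not the choice of the genes by these same counts. The rule had left out genes with under 50 counts in 1 library of the reading genotype, which narrows the spread between its libraries. Among the genes kept, the median ratio was 1.18 between KO libraries and 1.30 between WT libraries. This ratio was over 2 for Mt4 in KO cells and for Calhm3, Slc7a11 and Gm3373 in WT cells.

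**Figure D1:**
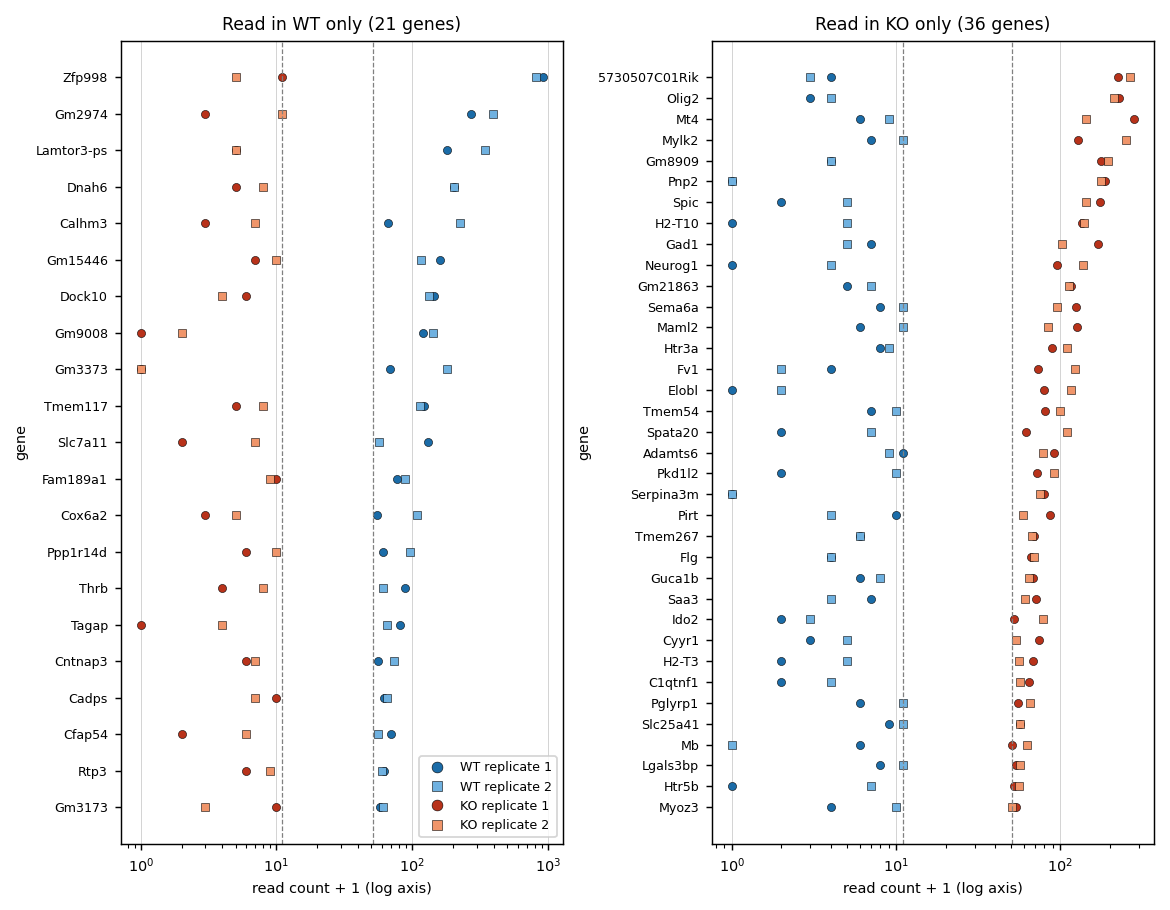
Read counts plus 1 of the 21 genes read in WT cells only and 36 of the 37 genes read in KO cells only (log axis), with a point for each of the 4 libraries; dashed lines mark the limits of 10 and 50 counts. The rule keeps the groups apart in every row; the spread to look at is within a genotype, widest for Calhm3, with 65 and 223 counts in WT cells.

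The limits were tight for some genes. Mb and Myoz3 entered with 50 counts in a KO library, whereas Nwd1 stayed out with 48 and 85 counts in KO cells and Spink2 with 48 and 90. In the other direction, Scn9a stayed out with 159 and 49 counts in WT cells and 1700016D06Rik with 8 and 11 in KO cells. As a scale for such all-or-none reading, the same limits put on 1 library against 1 were met by 27 genes between WT1 and WT2 and by 13 between KO1 and KO2. Between a WT and a KO library they were met by 120 to 240 genes. By the rule, the 58 genes are counted in every pair of a WT and a KO library and cannot be counted within a genotype. The contrast is thus partly set in advance and is no test of these genes.

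Promoters are shown first, since CpG density is a property of the reference that the rule did not use. RefSeq promoter windows of GRCm38.p6, from 250 bases before to 50 bases after the start, were found for 16 of the 21 genes read in WT cells only and for 21 of the 37 read in KO cells only. Those below were chosen as the contrast within each direction, CpG-rich against CpG-poor, with CG in capitals.
Neurog1, read in KO cells only, chr13:56252131-56252430, minus strand: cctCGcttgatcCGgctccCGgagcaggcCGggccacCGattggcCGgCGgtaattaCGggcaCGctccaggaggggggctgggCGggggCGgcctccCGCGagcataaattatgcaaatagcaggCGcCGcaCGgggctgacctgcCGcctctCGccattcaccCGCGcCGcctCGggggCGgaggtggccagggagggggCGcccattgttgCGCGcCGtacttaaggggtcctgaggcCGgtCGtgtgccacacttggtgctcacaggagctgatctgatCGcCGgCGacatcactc
Mt4, read in KO cells only, chr8:94136954-94137253, plus strand: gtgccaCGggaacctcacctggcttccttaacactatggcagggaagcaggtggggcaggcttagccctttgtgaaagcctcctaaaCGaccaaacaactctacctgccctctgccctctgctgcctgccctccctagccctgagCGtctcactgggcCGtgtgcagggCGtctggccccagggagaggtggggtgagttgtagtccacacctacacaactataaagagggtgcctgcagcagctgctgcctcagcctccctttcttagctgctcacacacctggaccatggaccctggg
Thrb, read in WT cells only, chr14:17660710-17661009, plus strand: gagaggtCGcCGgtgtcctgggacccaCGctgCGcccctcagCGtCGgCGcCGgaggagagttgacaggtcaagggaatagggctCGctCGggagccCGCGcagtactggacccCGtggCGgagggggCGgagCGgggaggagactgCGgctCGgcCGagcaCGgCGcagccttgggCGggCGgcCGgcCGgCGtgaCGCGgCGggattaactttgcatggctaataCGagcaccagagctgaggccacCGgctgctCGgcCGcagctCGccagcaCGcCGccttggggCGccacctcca
Rtp3, read in WT cells only, chr9:110989664-110989963, minus strand: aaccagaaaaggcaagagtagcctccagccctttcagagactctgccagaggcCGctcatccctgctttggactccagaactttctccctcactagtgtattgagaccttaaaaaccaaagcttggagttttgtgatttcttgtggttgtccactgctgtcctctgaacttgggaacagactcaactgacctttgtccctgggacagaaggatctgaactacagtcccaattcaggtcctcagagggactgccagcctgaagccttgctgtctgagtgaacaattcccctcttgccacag
The windows of Neurog1 and Thrb held 32 and 37 CpG dinucleotides, and those of Mt4 and Rtp3 held 5 and 1. The ratio of observed to expected CpG had a median of 0.270 in genes read in KO cells only and 0.506 in genes read in WT cells only. It was 0.609 over all 15934 protein-coding autosomal promoters and 0.748 over the 11122 promoters of genes tested. A ratio over 0.6 was found in 7 of 21 and 7 of 16 windows, against 50.8% of all protein-coding windows and 69.0% of those of genes tested. CpG-rich windows in KO cells belonged to Neurog1, Olig2, Gad1, Tmem54, Tmem267, 5730507C01Rik and Fv1, and the window of Elobl held no CG. The letters TATAAA, on either strand, stood in 7 of 21 windows of the KO direction and in 3 of 16 of the WT direction. They stood in 13.2% of all protein-coding windows and in 7.01% of those of genes tested. The letters CACGTG and CCGGAAG each stood in 1 window of either direction, TGACGTCA in 1 window of the WT direction and TCGCGAGA in none; these are held by 8.08%, 12.4%, 2.45% and 1.52% of all windows. A match is a run of letters and not a bound site.

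**Figure D2:**
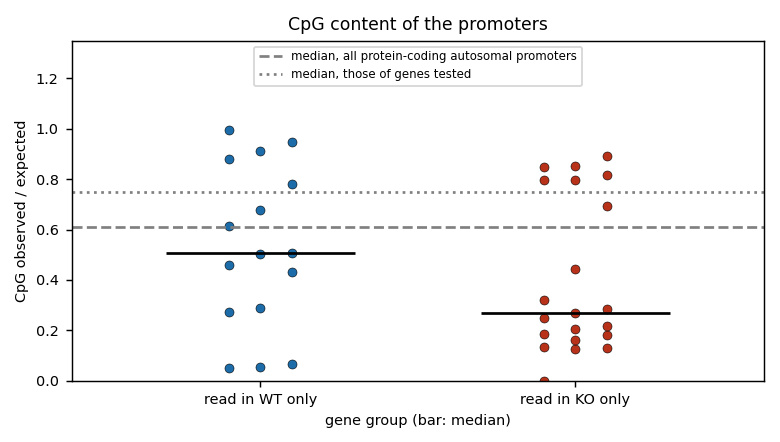
Observed to expected CpG ratio in the RefSeq promoter windows of 16 genes read in WT cells only and 21 genes read in KO cells only, with a point for each gene and a bar at the median; horizontal lines are the medians of all protein-coding autosomal promoters (0.609) and of those of genes tested (0.748). Points of the KO direction gather near the bottom, with 7 above 0.6.

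Among the genes read in KO cells only, 8 have known roles in neurons or sensory cells. Roles were assigned to the chosen genes only. No share of such roles over all genes can therefore be set beside this count or the later counts by role. Olig2, a basic helix-loop-helix factor of motor neuron and oligodendrocyte progenitors, had 2 and 3 counts in WT cells and 227 and 210 in KO cells, a ratio of 87.1 (95% interval 37.0 to 270.0). Neurog1, a proneural factor of the same class, had 0 and 3 counts in WT cells and 94 and 137 in KO cells, a ratio of 76.7 (95% interval 25.9 to 375). Both were at 3 counts or fewer in each WT library and over 90 in each KO library. Gad1, which makes the inhibitory transmitter GABA, had 6 and 4 counts in WT cells and 169 and 101 in KO cells, a ratio of 26.9 (95% interval 14.4 to 56.8). The serotonin-gated channel Htr3a had 7 and 8 counts in WT cells and 88 and 108 in KO cells. The serotonin receptor Htr5b had 0 and 6 counts in WT cells and 51 and 55 in KO cells. Of the family's other members, Htr1b and Htr6 were tested and neither was called. Pirt, a regulator of TRP channels in sensory neurons, had 9 and 3 counts in WT cells and 85 and 58 in KO cells. Sema6a, an axon guidance protein, had 7 and 10 counts in WT cells and 124 and 94 in KO cells. The photoreceptor protein Guca1b had 5 and 7 counts in WT cells and 67 and 63 in KO cells, so this group also held genes just above 50 counts.

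Relatives of these genes, picked after their values were seen, did not move as a block. Olig1, which lies 41.1 kb from Olig2, had 24 and 70 counts in WT cells and 1094 and 558 in KO cells and rose by 4.18 on the log2 scale (SE 0.52, adjusted p = 0.00299). Gad2 had 0 and 1 counts in WT cells and 15 and 11 in KO cells and also rose (log2 fold change 4.40, SE 0.99, adjusted p = 0.0197). Neurog3 had 7 and 15 counts in WT cells and 9 and 12 in KO cells and was not called. Neurog2 had at most 14 counts and was not tested. Every p-value of this kind is from edgeR's quasi-likelihood test over 18157 genes, with genes called where the adjusted p was under 0.05 and the change exceeded 1.5-fold.

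A further 9 genes are known from immunity and defence. Spic, an ETS factor of red pulp macrophages, had 1 and 4 counts in WT cells and 174 and 142 in KO cells, a ratio of 63.0 (95% interval 26.7 to 195). Its close relative Spi1, the factor of myeloid cells, went the other way, with 135 and 111 counts in WT cells and 19 and 26 in KO cells (log2 fold change -2.47, SE 0.43, adjusted p = 0.00856). Ido2, an enzyme of tryptophan breakdown, had 1 and 2 counts in WT cells and 51 and 77 in KO cells. Fv1, which restricts mouse retroviruses, had 3 and 1 counts in WT cells and 72 and 122 in KO cells, a ratio of 48.3 (95% interval 18.6 to 179). Saa3, an acute-phase protein, had 6 and 3 counts in WT cells and 70 and 60 in KO cells. In contrast to these, Pglyrp1, which binds bacterial cell walls, and Lgals3bp, a galectin-binding secreted protein, had small ratios of 7.84 (95% interval 4.57 to 14.5) and 6.39 (95% interval 3.81 to 11.4). Lgals3bp had 7 and 10 counts in WT cells and 53 and 56 in KO cells, just inside both limits.

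The other immune genes were H2-T10, Gm8909 and H2-T3, from the T region of the major histocompatibility complex, whose class Ib molecules present antigen or act as ligands of innate-like lymphocytes. H2-T10 (ENSMUSG00000079491, chromosome 17 from 36426768 to 36432357) had 0 and 4 counts in WT cells and 134 and 139 in KO cells, a ratio of 68.0 (95% interval 26.3 to 251). Gm8909 (ENSMUSG00000073402, chromosome 17 from 36475335 to 36479429) had 3 and 3 counts in WT cells and 177 and 193 in KO cells, a ratio of 61.5 (95% interval 28.0 to 169). H2-T3 (ENSMUSG00000054128, chromosome 17 from 36496464 to 36501179) had 1 and 4 counts in WT cells and 67 and 55 in KO cells. The genes lie on the same strand, with gaps of 42978 and 17035 bases. Coordinates are those of the authors' files. Between them, the pseudogene Gm10499 had 0 and 2 counts in WT cells and 605 and 467 in KO cells. The antisense-strand lncRNA 2410017I17Rik had 0 and 0 counts in WT cells and 74 and 73 in KO cells. Both met the same limits. Gm20478, an lncRNA that overlaps Gm8909 on the opposite strand, had 0 and 0 counts in WT cells and 50 and 34 in KO cells.

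The neighbouring class I genes were mixed. H2-T22 rose (log2 fold change 3.20, SE 0.34, adjusted p = 0.00169), with 37 and 77 counts in WT cells and 509 and 528 in KO cells. H2-T24 rose as well (log2 fold change 2.66, SE 0.74, adjusted p = 0.0394), with 2 and 5 counts in WT cells and 13 and 33 in KO cells. Gm7030, which overlaps H2-T10, had 1 and 1 counts in WT cells and 12 and 19 in KO cells and was called higher. In contrast, H2-Bl fell (log2 fold change -2.98, SE 0.34, adjusted p = 0.0021), with 503 and 935 counts in WT cells and 68 and 113 in KO cells. H2-K1, H2-D1, H2-Q4 and H2-Q7, the more widely expressed or Q-region genes, were not called, and neither were Rpp21, Trim39 and Trim26 next to the T region. A wider list of 40 tested genes of interferon response and antigen presentation held 12 genes called higher (30%) and 2 called lower (5%), against 11% and 10.7% of all genes tested. Its largest changes were those of Psmb8, Gbp2 and Oasl2, which rose, and Xaf1, which fell from 930 and 776 counts in WT cells to 102 and 94 in KO cells. None of the 58 genes is in that list.

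Muscle genes formed a smaller group of 3. Mylk2, the myosin light chain kinase of skeletal muscle, had 6 and 10 counts in WT cells and 127 and 250 in KO cells, a ratio of 23.5 (95% interval 14.3 to 41.5). Myoglobin (Mb), which stores oxygen in muscle, had 5 and 0 counts in WT cells and 50 and 62 in KO cells. Myoz3, a protein of the sarcomere, had 3 and 9 counts in WT cells and 53 and 50 in KO cells. Mylk2 is the only one of these clear of the limit of 50 in both KO libraries. Myoz1 and Myoz2 had at most 15 counts in any library and were not tested.

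Among the metabolic genes, Pnp2 had no counts in WT cells. Pnp2 (ENSMUSG00000068417), a purine nucleoside phosphorylase of the purine salvage pathway, had 0 and 0 counts in WT cells and 185 and 176 in KO cells. Set against a floor of 3 counts in each WT library, it was at least 59.97-fold higher. Mt4, the metallothionein of stratified epithelia, had 5 and 8 counts in WT cells and 281 and 142 in KO cells, a ratio of 32.4 (95% interval 18.8 to 61.4), and the KO libraries differed by more than 2-fold. Mt1, a metal-binding protein made in nearly all cells, had 4271 and 1881 counts in WT cells and 11488 and 5950 in KO cells and was not called. Slc25a41, a mitochondrial carrier, had 8 and 10 counts in WT cells and 56 and 56 in KO cells, the smallest ratio of all (6.20 (95% interval 3.75 to 10.8)).

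Secreted and structural proteins contributed Serpina3m, C1qtnf1, Adamts6 and Flg. Serpina3m, a serine protease inhibitor, had 0 and 0 counts in WT cells and 78 and 74 in KO cells and was at least 25.3-fold higher against the same floor. Its nearest relatives Serpina3k and Serpina3c had 0 counts in every library. C1qtnf1 had 1 and 3 counts in WT cells and 63 and 56 in KO cells. Adamts6, a metalloprotease of the extracellular matrix, had 10 and 8 counts in WT cells and 90 and 77 in KO cells. Filaggrin (Flg), a protein of the cornified skin layer, had 3 and 3 counts in WT cells and 65 and 68 in KO cells, which is 0.213 FPKM over its long transcript and the lowest level per length in this direction.

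The remaining genes had mixed or unknown roles. Maml2, a coactivator of Notch signalling, had 5 and 10 counts in WT cells and 126 and 83 in KO cells, while Maml1 and Maml3 were not called. The zinc finger gene 5730507C01Rik had 3 and 2 counts in WT cells and 222 and 265 in KO cells, a ratio of 97.1 with a lower 95% bound of 41.3. Elobl, a copy of elongin B, had 0 and 1 counts in WT cells and 79 and 115 in KO cells. Elob itself was not called. The polycystin-like Pkd1l2 had 1 and 9 counts in WT cells and 71 and 91 in KO cells. Tmem54, Tmem267, Cyyr1, Spata20 and the predicted Gm21863 had 53 to 115 counts in KO cells and 1 to 9 in WT cells. Transcription factors made up 4 of the 37 genes, and 3 of the 21 in the other direction, against 8.59% of protein-coding autosomal genes tested.

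Among the 21 genes read in WT cells only, 3 act in the nucleus, and the others include ciliary, signalling, membrane, neuronal and muscle genes and predicted genes. Zfp998 (ENSMUSG00000074832), a zinc finger gene, had the highest counts of either direction (15.9 FPKM per length, below 32.8 for Mt4 and 20.4 for Gm21863 in KO cells), with 919 and 811 counts in WT cells and 10 and 4 in KO cells, a ratio of 124 (95% interval 73.7 to 227). Gm15446, also a zinc finger gene, had 160 and 115 counts in WT cells and 6 and 9 in KO cells. Thrb, the beta receptor of thyroid hormone, had 88 and 60 counts in WT cells and 3 and 7 in KO cells, a ratio of 14.8 (95% interval 7.85 to 31.6). The alpha receptor Thra was called in the other direction (log2 fold change 1.02, SE 0.25, adjusted p = 0.0242), with 203 and 324 counts in WT cells and 505 and 560 in KO cells. Of 348 tested genes with a Zfp symbol, 26 were called higher (7.47%) and 32 lower (9.20%), against 11% and 10.7% of all genes tested.

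Ciliary genes were represented by Dnah6, an axonemal dynein heavy chain, and Cfap54. Dnah6 had 201 and 201 counts in WT cells and 4 and 7 in KO cells, a ratio of 36.7 (95% interval 20.3 to 74.0). Cfap54 had 69 and 55 counts in WT cells and 1 and 5 in KO cells. Other dynein heavy chains, looked at after the fact, did not follow: Dnah12 rose from 27 and 25 counts in WT cells to 348 and 271 in KO cells (log2 fold change 3.57, SE 0.37, adjusted p = 0.00151). Dnah10 and Dnah8 were called higher as well, and no other Dnah gene was called lower.

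Signalling genes were Dock10, Tagap and Ppp1r14d. Dock10, which activates small GTPases, had 143 and 131 counts in WT cells and 5 and 3 in KO cells, a ratio of 34.4 (95% interval 17.2 to 80.4). Dock6, Dock8, Dock9 and Dock11 were not called. Tagap, a GTPase-activating protein of T cells, had 80 and 64 counts in WT cells and 0 and 3 in KO cells, a ratio of 48.2 (95% interval 16.2 to 236). Ppp1r14d, an inhibitor of protein phosphatase 1, had 60 and 96 counts in WT cells and 5 and 9 in KO cells.

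At the membrane, Slc7a11, the exchanger that imports cystine for glutathione synthesis, had 130 and 56 counts in WT cells and 1 and 6 in KO cells, a ratio of 26.7 (95% interval 12.7 to 67.2). The WT libraries differed by 2.66-fold. Its partner subunit Slc3a2 fell by 0.91 on the log2 scale (SE 0.18, adjusted p = 0.0139), from 9034 and 9694 counts in WT cells to 4452 and 5599. A list of 38 tested glutathione and xenobiotic enzymes held 8 genes called higher (21.1%, against 11% of all genes tested) and 3 lower (7.89%, against 10.7%), with Gstm3, Cyp1b1, Mgst2 and Gstm6 changing most, all upward. Calhm3, a channel subunit of taste cells, had 65 and 223 counts in WT cells and 2 and 6 in KO cells; of its family, Calhm5 was also called lower and Calhm2 and Calhm6 were not called. Tmem117 had 122 and 113 counts in WT cells and 4 and 7 in KO cells. Rtp3, a chaperone of taste receptors, had 61 and 59 counts in WT cells and 5 and 8 in KO cells.

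The other genes of this direction were Cadps, Cntnap3, Fam189a1, Cox6a2 and Gm9008. Cadps, which primes dense-core vesicles in neurons, had 61 and 64 counts in WT cells and 9 and 6 in KO cells, the smallest ratio in this direction (8.36 (95% interval 4.88 to 15.4)), and its relative Cadps2 was called lower too. Cntnap3, a neuronal adhesion protein, had 55 and 73 counts in WT cells and 5 and 6 in KO cells. Fam189a1 had 76 and 87 counts in WT cells and 9 and 8 in KO cells. Cox6a2, the cytochrome oxidase subunit of heart and skeletal muscle, had 54 and 108 counts in WT cells and 2 and 4 in KO cells, while the widely expressed Cox6a1 was not called. Muscle and neuronal genes thus occurred in both directions.

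Chromosome 14 carried 6 of the 21 genes read in WT cells only (28.6%, against 3.61% of protein-coding autosomal genes tested) and 1 of the 37 read in KO cells only. All 6 lie between positions 4431611 and 18287197 in the files: Thrb, Cadps, Lamtor3-ps, Gm3373, Gm3173 and Gm2974. Lamtor3-ps (ENSMUSG00000096904, chromosome 14 from 16057291 to 16063946) had 178 and 345 counts in WT cells and 4 and 4 in KO cells, a ratio of 65.6 (95% interval 33.0 to 153). Gm2974 (ENSMUSG00000079391, chromosome 14 from 18264878 to 18287197) had 271 and 391 counts in WT cells and 2 and 10 in KO cells, a ratio of 55.3 (95% interval 31.5 to 108). Gm3373 had 68 and 179 counts in WT cells and 0 and 0 in KO cells, and was at least 41.3-fold lower in KO cells against the floor. Gm3173 had 57 and 60 counts in WT cells and 9 and 2 in KO cells. These belong to a run of predicted genes with near-identical transcripts: for each of the 4, between 72 and 109 other genes matched over at least 50% of the transcript at 80% identity or more. The closest matches of Gm3173 were Gm3636 and Gm2237, both at 99.6% identity. Gm3636 had 132 and 187 counts in WT cells and 38 and 54 in KO cells, whereas Gm2237 had 48 and 89 counts in WT cells and 34 and 77 in KO cells.

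Genes in the same stretch that the rule did not pick were chosen for description after the cluster was seen. The predicted genes among them fell more than the others. Of the 20 predicted genes tested that were not members, 13 were called lower in KO cells and 0 higher, and in 18 both KO libraries lay below both WT libraries. Summed over these 20, counts were 1139 and 1471 in WT cells and 284 and 363 in KO cells. Of the 23 other genes tested there, 4 were called lower (17.4%: Top2b, Ngly1, Il3ra and Pxk) and 1 higher (Fam107a). Over protein-coding autosomal genes tested, 10.2% were called lower and 11.6% higher. In 12 of these 23, both KO libraries lay below both WT libraries, and their median log2 fold change was -0.29. Their summed counts were 31750 and 29613 in WT cells and 28332 and 29210 in KO cells. Gm3453 shows the pattern below the limit of 50, with 28 and 68 counts in WT cells and 0 and 0 in KO cells, whereas Gm8281 and Gm3468 had similar counts in all libraries. With the members counted, 17 predicted genes were called lower. Fits with either KO library left out called fewer of them lower, and also called fewer genes lower over all genes tested. Reads of near-identical copies can be placed on any of them, so these genes are not independent.

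**Figure D3:**
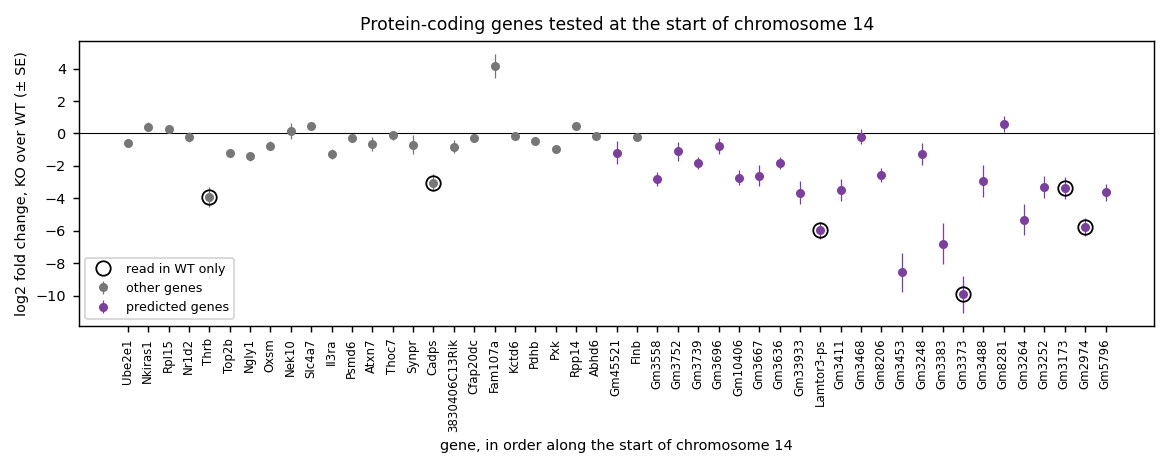
Log2 fold change of KO over WT cells (± SE, edgeR) for the 49 protein-coding genes tested at the start of chromosome 14, in their order along it; predicted genes are purple, other genes grey, and the genes read in WT cells only are circled. Most predicted genes lie below 0, with 17 of 24 called lower. The other genes had a median of -0.30, with 6 of 25 called lower.

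Elsewhere, genes of like direction seldom lay side by side. Chromosome 17 carried 5 of the 37 genes read in KO cells only (13.5%, against 5.24% of genes tested), namely the T-region genes, Guca1b and Slc25a41. Lgals3bp and C1qtnf1 lie 26.1 kb apart on chromosome 11, with Cant1 between them, which had 760 and 976 counts in WT cells and 1054 and 1455 in KO cells and was not called. On chromosome 12, 5730507C01Rik and Gm21863 lie 1.42 Mb apart, each with a pseudogene within 50 kb that met the same limits. These were Gm19786, with 0 and 1 counts in WT cells and 80 and 77 in KO cells, and Gm40853, with 1 and 2 in WT cells and 103 and 136 in KO cells. On chromosome 13, pseudogenes more than 50 kb from Zfp998, picked after their values were seen, moved both ways. Gm46426 had 105 and 107 counts in WT cells and 4 and 3 in KO cells. Gm10769 had 17 and 14 in WT cells and 249 and 237 in KO cells. Chromosomes 8 and 11 together carried 8 of the 37 (21.6%, against 14.3%) and 0 of the 21. In all, 7 genes read in KO cells only and 0 read in WT cells only had another feature within 50 kb that met the limits in the same direction. The share of all genes with such a feature nearby was not computed.

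The nearest tested protein-coding gene on each side, which the rule did not use, gave 67 neighbours of genes read in KO cells only. Of these, 14 were called higher (20.9%) and 6 lower (8.96%), with a median log2 fold change of 0.29, beside 11.6% and 10.2% of protein-coding autosomal genes tested. Miip, which starts 0.163 kb from Fv1 on the opposite strand, had 109 and 137 counts in WT cells and 1393 and 1248 in KO cells (log2 fold change 3.43, SE 0.23, adjusted p = 0.000283). Tifab, beside Neurog1, had 1 and 0 counts in WT cells and 39 and 57 in KO cells (log2 fold change 6.25, SE 0.89, adjusted p = 0.00459). Gcsh, a subunit of glycine cleavage 2.14 kb from Pkd1l2, had 631 and 1194 counts in WT cells and 3061 and 3122 in KO cells (log2 fold change 1.78, SE 0.26, adjusted p = 0.004875). Further genes called higher were Coil beside Elobl, Saal1 beside Saa3, Khsrp beside Slc25a41, Usp28 beside Htr3a, Ccl28 beside Tmem267, Mybpc1 beside Spic, Adam32 beside Ido2, Gsc beside Serpina3m, Gm7030 beside the T-region genes, and Hpca, which overlaps Tmem54. The list closes with Olig1, described above. Eno1b, the nearest on the far side of Sema6a, was called lower and had 4029 and 5784 counts in WT cells and 704 and 591 in KO cells. App beside Cyyr1, Rnase4 beside Pnp2, Mill2 beside Pglyrp1, Ccdc82 beside Maml2 and Synpo beside Myoz3 were called lower too. Gcsh, Adam32 and Coil lie on chromosomes 8 and 11, and without these chromosomes 11 of 52 neighbours were called higher.

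Genes read in WT cells only had 39 such neighbours, of which 8 were called lower (20.5%) and 0 higher, with a median of -0.43. Over protein-coding autosomal genes tested, 10.2% were called lower and 11.6% higher. Of the 8, all but Noct beside Slc7a11 and Gm10772 beside Zfp998 lie in the stretch of chromosome 14 described above. Without chromosome 14, 2 of 29 neighbours were called lower. Nsmce3, which overlaps Fam189a1, and Lrrc2, 0.869 kb from Rtp3, were not called. With the 5 nearest genes on each side, chromosome 14 included, 34 of 176 neighbours of genes read in WT cells only were called lower (19.3%) and 11 higher (6.25%). Of 331 neighbours of genes read in KO cells only, 56 were called higher (16.9%) and 30 lower (9.06%).

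**Figure D4:**
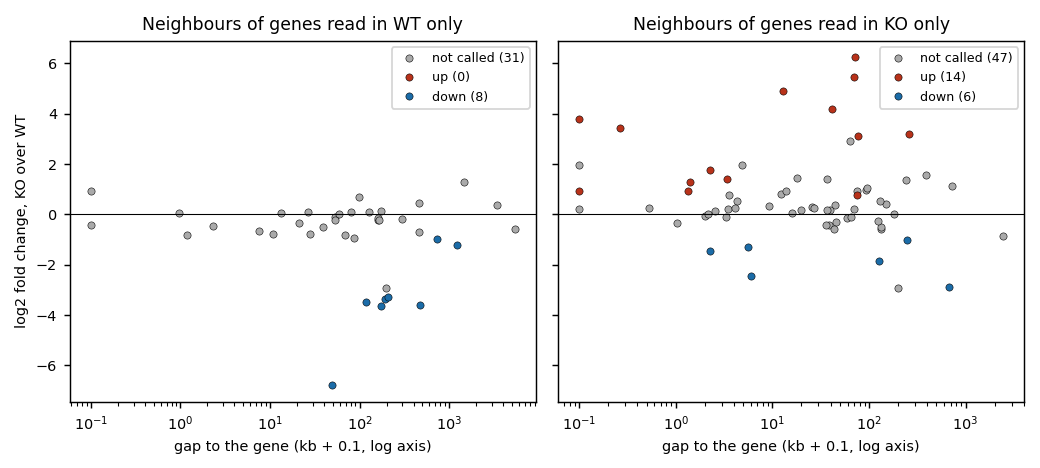
Log2 fold change of KO over WT cells for the nearest tested protein-coding gene on each side, against its gap to the gene read in WT cells only (left, 39 neighbours) or in KO cells only (right, 67 neighbours); gaps are in kb on a log axis after adding 0.1, and colours mark genes called higher, lower or not called. In the right panel 14 are called higher, from overlapping genes to gaps over 100 kb, and in the left panel 8 are called lower.

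Other features overlapped 14 of the 21 and 17 of the 37 genes, but a feature with over 10 counts overlapped only 5 and 8. Overlaps were not counted over all genes. Gm26754, an lncRNA on the strand opposite to Zfp998, had 38 and 82 counts in WT cells and 1 and 1 in KO cells. Whether reads were counted by strand is not given in the sources used here, so reads of such partners cannot be told apart.

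Sequence relatives bear on how far a count of 0 belongs to a gene. At 80% identity over at least 50% of the transcript, 8 of the 21 genes read in WT cells only and 7 of the 37 read in KO cells only had a match among GENCODE M21 transcripts. The search was run for the chosen genes only, so how common such matches are over all genes is not known here. Tagap matched Tagap1 at 99.0% over 69.9% of its length, and Tagap1 rose in KO cells, with 90 and 84 counts in WT cells and 635 and 617 in KO cells (log2 fold change 2.84, SE 0.25, adjusted p = 0.00091). Summed, the pair had 170 and 148 counts in WT cells and 635 and 620 in KO cells, so the sum was higher in KO cells although Tagap was read in WT cells only. Gm9008, a predicted gene with 120 and 142 counts in WT cells and 0 and 1 in KO cells, matched Rnf26 at 99.1% over 98.5%. Rnf26, a membrane-bound ubiquitin ligase on chromosome 9, rose (log2 fold change 2.35, SE 0.46, adjusted p = 0.0125), with 21 and 15 counts in WT cells and 92 and 95 in KO cells. Their sums were 141 and 157 in WT cells and 92 and 96 in KO cells, a far smaller difference than that of either gene.

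The other pairs differed in kind. H2-T10 and H2-T22, at 97.0% identity, were both higher in KO cells, and their sums were 37 and 81 in WT cells and 643 and 667 in KO cells. Gm8909 and H2-Bl, at 92.0%, moved in opposite directions, with sums of 506 and 938 in WT cells and 245 and 306 in KO cells. These sums leave out the pseudogene Gm10499, which matched Gm8909 at 90.9% over 75.6%. Gm10499 had 0 and 2 counts in WT cells and 605 and 467 in KO cells, so the lower sum in KO cells holds for this pair only. Pnp2 overlaps Pnp in the files and matched it at 97.2%; Pnp was not called, with 321 and 358 counts in WT cells and 415 and 377 in KO cells, and the sums were 321 and 358 in WT cells and 600 and 553 in KO cells. Zfp932, the closest relative of Gm15446 at 87.2%, was not called. Counts added to those of matched processed pseudogenes took Zfp998 to 1072 and 963 in WT cells and 347 and 309 in KO cells. The same sum gave 5730507C01Rik 112 and 76 counts in WT cells and 342 and 387 in KO cells, and Elobl 21 and 14 in WT cells and 448 and 933 in KO cells. With such sums, 20 of the 21 and 34 of the 37 genes still met the limits; Zfp998, 5730507C01Rik, Elobl and Gm21863 did not.

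**Figure D5:**
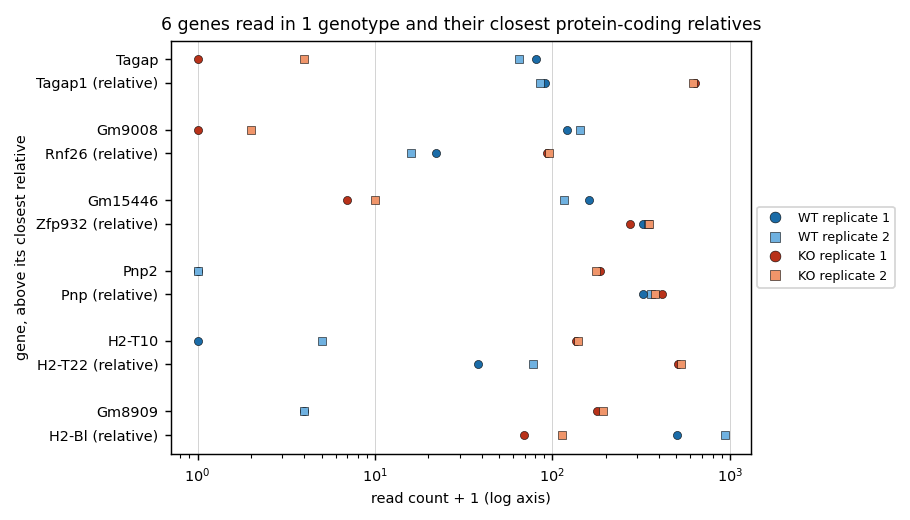
Read counts plus 1 (log axis) in the 4 libraries for 6 genes read in 1 genotype, each above its closest protein-coding relative by transcript sequence. Tagap and Gm9008 were read in WT cells only while Tagap1 and Rnf26 were higher in KO cells; Pnp and Zfp932 had similar counts in all libraries.

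The wider lists placed few of these genes. Of 57 tested germline and meiosis genes, 8 were called higher (14.04%) and 12 lower (21.1%), and of 41 tested imprinted genes, 4 were higher (9.76%) and 7 lower (17.1%), against 11% and 10.7% of all genes tested. Dppa3, a maternal factor of germ cells and early embryos, had 19 and 12 counts in WT cells and 528 and 405 in KO cells, and H19, an imprinted lncRNA, had 143 and 370 counts in WT cells and 25 and 39 in KO cells. Zfp998 was the only one of the 58 genes in any list. Markers of other cell types did not move together: Sox7 was the 1 of 4 tested endoderm markers called lower, with 273 and 162 counts in WT cells and 4 and 16 in KO cells, Tfap2c the 1 of 4 tested trophoblast markers called higher, and Col1a1 the 1 of 6 tested fibroblast markers called higher. Summed over each list, endoderm markers had 24.2 to 26.5 CPM (counts scaled to the library size) in WT cells and 12.6 to 19.5 in KO cells. Fibroblast markers had 67.0 to 131 and 113 to 131 CPM, and trophoblast markers 47.0 to 61.6 and 147 to 173. Most of the trophoblast sum was Tfap2c, with 775 and 553 counts in WT cells and 2412 and 2321 in KO cells. The other tested trophoblast markers, Eomes, Krt7 and Gata3, were not called. Whether these cell types had a part in the reading of the 58 genes was not tested.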

How the data were processed

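RNA-seq counts of 2 WT and 2 Npac KO libraries of E14 cells were used. The authors deposited raw read counts per gene, and FPKM values made from the same counts by gene length and library size. Per the labels, processing used CASAVA, HISAT2 2.0.5, featureCounts 1.5.0-p3 and mm10, whereas the study's methods name another HISAT release. Gene starts in the files lie within 2000 bases of GENCODE M21 (GRCm38) for only 3.43% of 20760 genes, so the build of the files is not settled; their coordinates are printed as given, and promoter coordinates are GRCm38.p6.

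Members were taken by the count limits of 50 and 10. The members and gene lists were chosen with earlier results of these data known. Counts were fitted over 18157 genes in R 4.3.3 with edgeR 4.0.16 (TMM, filterByExpr, quasi-likelihood test, Benjamini-Hochberg adjustment); all 58 genes passed the filter. The fit was tested on simulated data. Relatives were found with blastn 2.17.0+ among transcripts in place of proteins, which were not used here, and 4596 of 10239 processed pseudogenes matched a parent at 90% identity over 60% of their length. Named are every member, Glyr1, nearest neighbours, closest relatives, up to 4 called genes per list and features within 50 kb meeting the limits; other genes were chosen after their values were seen. The values of 1 member and of some relatives are not reported here. Depth was 15850805 to 16965120 counts per library; intervals and floors cover counting error only. Alternatives were DESeq2 1.42.0, its size factors, no filter, a replicate block, other limits and leaving out each library.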

Additional observations from a re-analysis of the deposited data

How the results depend on the processing

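The number of genes read in 1 genotype followed the limits. With at least 100 counts in place of 50, 8 genes were read in WT cells only and 11 in KO cells only; with at most 3 counts in place of 10 these were 3 and 11, with at least 30 in place of 50 they were 48 and 78, and with all biotypes 52 and 67. Leaving out each library in turn gave 28 to 57 genes in WT cells and 44 to 110 in KO cells, all members kept, since fewer libraries had to pass. Counts scaled by TMM kept 20 of 21 and 35 of 37 members, and limits set as FPKM kept 20 and 34.

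In the fits, leaving out each library gave 826 to 3571 genes called higher and 821 to 3384 lower, against 1999 and 1946. For neighbours of genes read in WT cells only the ranges were 0 to 3 higher and 3 to 11 lower, and for those of genes read in KO cells only 8 to 23 higher and 3 to 10 lower. Over the 4 gene lists together, 16 to 68 were called higher and 10 to 49 lower, against 32 and 24. The lone library left in a genotype was assumed to vary like the other genotype's libraries. The replicate block gave 3128 genes higher and 2994 lower, 23 neighbours of genes read in KO cells only higher, and 54 and 41 genes of the lists; it changed the other counts by less than 1.5 times. The labels do not say whether libraries of the same number were handled together, and the main fit had no replicate block. The deviations of WT1 from WT2 and of KO1 from KO2 had a correlation of 0.332 over 18157 genes. A shared replicate effect was not tested. With no filter on low counts, 22 neighbours of genes read in KO cells only and 52 genes of the lists were called higher. With 5 neighbours on each side, 11 of 176 were called higher beside genes read in WT cells only. Without chromosome 14, chosen after seeing the data, 2 of 29 were called lower there. Without chromosomes 8 and 11, also not planned beforehand, 11 of 52 neighbours of genes read in KO cells only were called higher. The log2 fold change of Glyr1 lay between -2.39 and -1.87 with each library left out. In CpG per 100 bases, the promoter medians were 25.0% and 47.5% of that of genes tested for genes read in KO and WT cells only, against 36.1% and 67.7% by the ratio. Causes of these shifts were not tested. At this depth, genes near 10 or 50 counts can change sides by counting error alone.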
